A study of Mus musculus with 12 samples.

Results

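Expression of 9 genes of Toll-like receptor and NF-kB signalling, chosen by name out of 35580 genes summed from the deposited transcript table, was examined in the hippocampus of adult mice. The members are the receptors Tlr2, Tlr3, Tlr4 and Tlr7, the adaptor Myd88, the NF-kB subunits Nfkb1 and Rela, the inhibitor Nfkbia and the endogenous ligand Hmgb1. The rule was their names, set with earlier results of these data known. RNA from 12 C57BL/6 mice (C57BL/6J in the study's methods) at postnatal day 70 was sequenced after ribosomal RNA depletion, with 3 mice in each of 4 groups. Control mice had dams that drank only water and were left undisturbed with the dam. Ethanol mice had dams with free access to 10% ethanol beside water through gestation and were then left undisturbed. Stress mice had water-drinking dams and were isolated for 3 hours a day from postnatal day 2 to 14, and ethanol + stress mice received both treatments. According to the study's methods all mice were males, the dams drank by choice and kept the ethanol bottle for the first days after birth, and the pups of a litter were divided between stress and no stress, so mice of different groups may share a dam. The labels do not give the dam of each mouse.

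Toll-like receptors recognise microbial products and molecules released from damaged cells. Most of them, including TLR2, TLR4 and TLR7, pass the signal through the adaptor MYD88, while TLR3 uses TICAM1. In both cases the IkB kinase complex marks the inhibitor IkBα, the product of Nfkbia, for degradation, which frees NF-kB dimers such as p50 with RELA to enter the nucleus and drive inflammatory genes. NF-kB in turn drives transcription of Nfkbia, a negative feedback loop. In the brain, microglia carry most Toll-like receptors, and astrocytes and neurons also carry some. Much of this pathway is regulated through the location and degradation of proteins, which RNA levels do not measure.

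The sequences that tie members of the set to each other are kappaB motifs, the sites that NF-kB dimers can bind. The kappaB consensus of 10 bases was searched on both strands in the 250 bases before each RefSeq gene start (build GRCm38.p6). A window was given for 6 of the 9 members, and 3 of these held a match, which is shown in capitals with its flanks in the sense of the gene, 5′ to 3′.
Tlr2: aggacacctGGGGAATTCCCacacggagcc
Tlr3: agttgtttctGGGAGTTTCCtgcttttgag
Nfkbia: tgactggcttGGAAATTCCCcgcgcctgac
The Tlr2 stretch is at chr3:83841761-83841790 on the minus strand, and its capitals hold 2 overlapping matches that begin 173 and 172 bases before the start. The Tlr3 stretch is at chr8:45410572-45410601 on the minus strand, with the match 211 bases before the RefSeq start but in the first exon of Tlr3-201 as GENCODE draws it, since GENCODE starts the gene further out. The Nfkbia stretch is at chr12:55492657-55492686 on the minus strand, its match is on the opposite strand to the gene, and it begins 29 bases before the start. Hmgb1, Myd88 and Rela had no match in their windows. The windows of Tlr3, Hmgb1 and Myd88 lie inside the gene that GENCODE annotates, so they describe the RefSeq start only. Of the Tlr2 window 159 bases and of the Rela window 58 bases also lie inside the GENCODE gene, and of the Nfkbia window none do. Of all 32851 windows 3.9% held a match, and of all genes with a window 4.46% did. Of the 47 other pathway genes with a window 10 held one, among them Nfkb2, Nfkbie, Rel, Tnfaip3, Cxcl10 and Il6. A match is a description of letters and not of binding.

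Values are in TPM, a length-corrected share of the transcripts in a library, as sleuth scaled them, added up over the transcripts of each gene. Differences are given as log2 of TPM plus 0.5, which understates the change of low genes, and were tested with limma in a single model of all 12 libraries. Gene positions are those of GENCODE vM21 on GRCm38. A gene was called at an unadjusted p under 0.01, the threshold of the study, and p-values adjusted over all 18434 genes tested are given beside it. The libraries held 12040000 to 14880000 read pairs, as recovered from the step size of low values. The 3 comparisons with control share the same 3 control mice and are therefore not independent of each other.

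None of the 9 members was called in any of the 3 comparisons with control. The share of all tested genes called was 0.678% for ethanol, 0.51% for stress and 0.971% for ethanol + stress, so that no call among 9 genes is what these shares give. Of the 27 differences, 26 had a 95% interval that included 0, and 25 had an interval that lay within a 2-fold change in either direction. The intervals of Tlr7 in stress and in ethanol + stress were wider. The lowest adjusted p was 0.791. In 2 of the 27 comparisons the groups did not overlap, where 8.25%, 7.2% and 10.2% of all genes did not overlap in ethanol, stress and ethanol + stress.

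**Figure D1:**
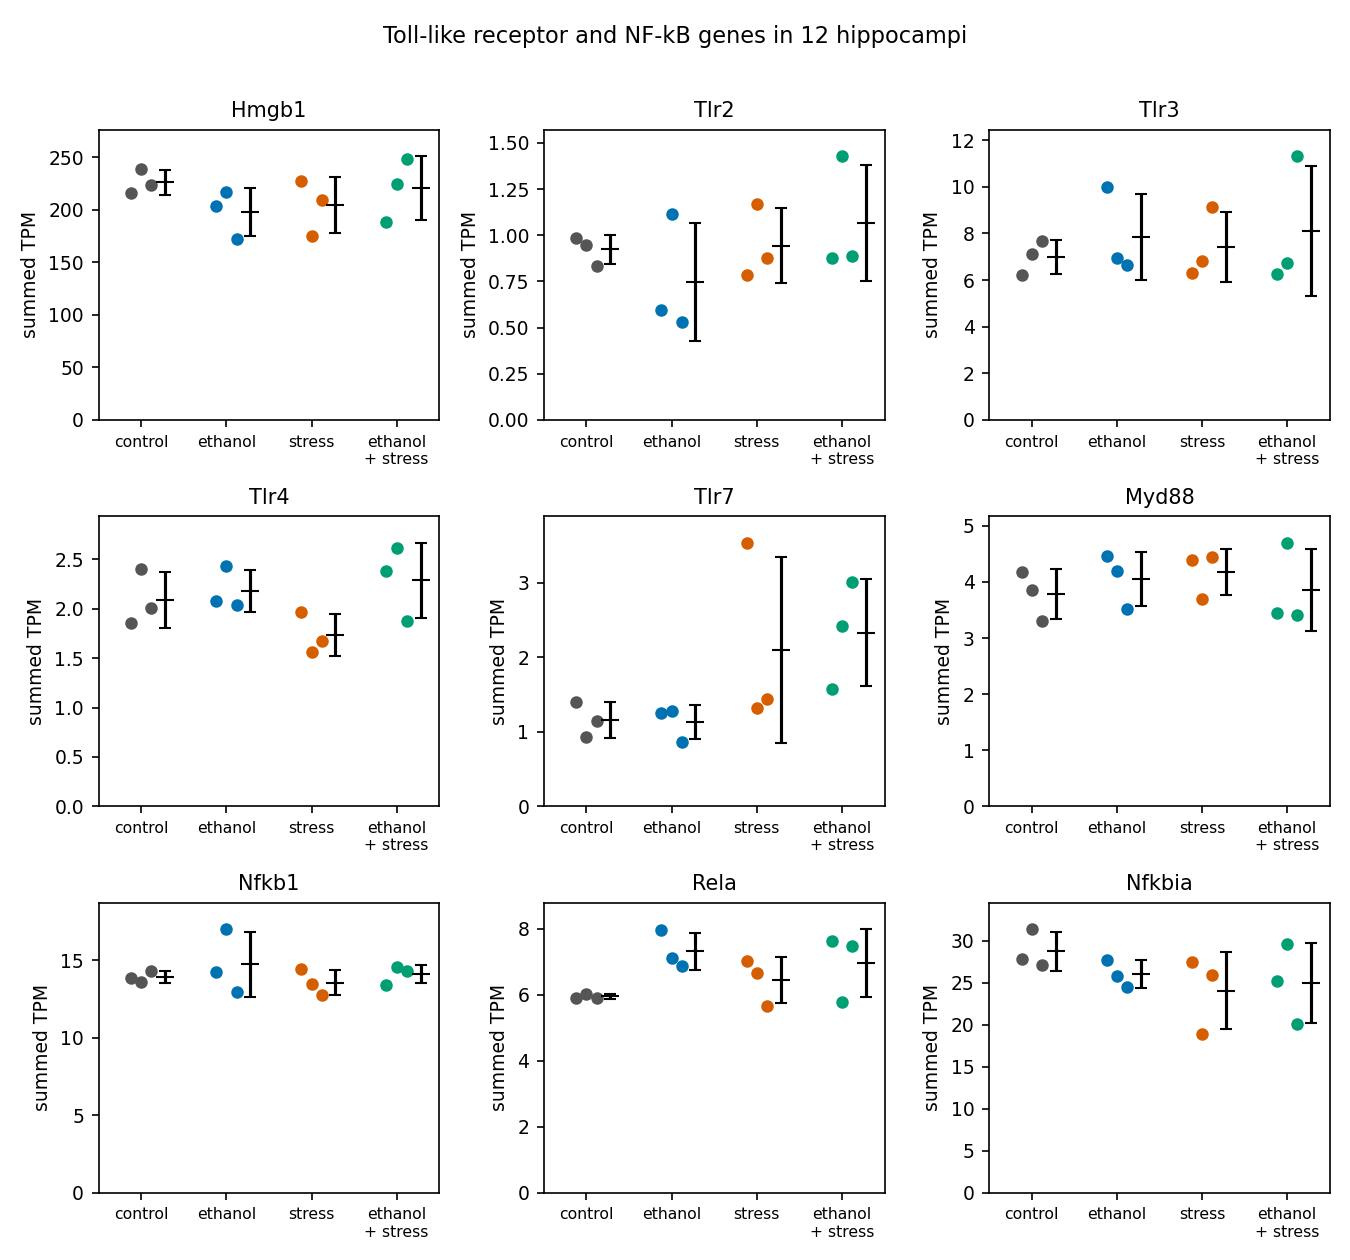
Summed TPM of the 9 genes in each of the 12 hippocampi, on linear axes that start at 0. Points are mice, ordered by replicate number within a group, and bars are the mean and SD of 3 mice; each treated group overlaps with control except ethanol for Rela and ethanol + stress for Tlr7.

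**Figure D2:**
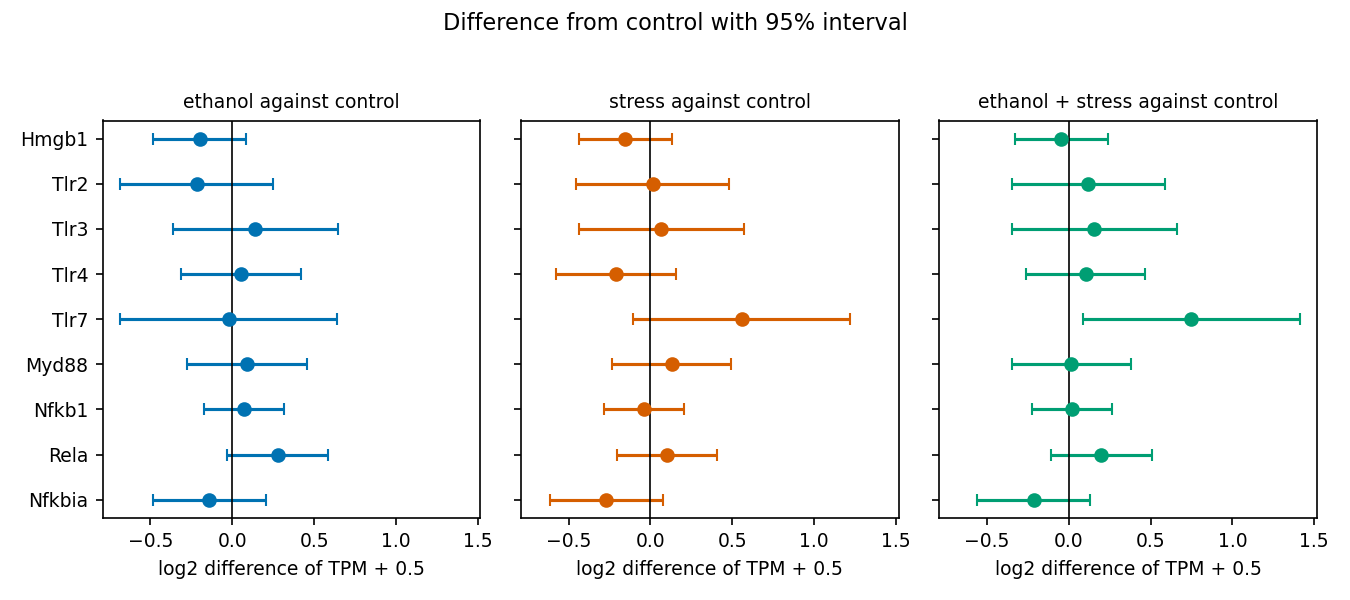
Log2 difference from control of the 9 genes in ethanol, stress and ethanol + stress, with 95% intervals from limma on log2(TPM + 0.5). The interval of Tlr7 in ethanol + stress, 0.09 to 1.41, is the only one of 27 that leaves out 0.

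Levels of the 9 genes differed by more than 2 orders of magnitude on the TPM scale, which is per transcript length. Hmgb1 was the highest, at 172 to 249 TPM over the 12 mice, followed by Nfkbia at 18.9 to 31.4 and Nfkb1 at 12.8 to 17.0. Tlr3 was at 6.22 to 11.3 and Rela at 5.66 to 7.96, and these neighbours overlapped. Myd88 was at 3.31 to 4.70 and Tlr4 at 1.56 to 2.62. Tlr7, at 0.868 to 3.54, overlapped with Tlr4 above it and with Tlr2, at 0.531 to 1.43, below it. The receptors were thus the lowest members apart from Tlr3, and the read pairs behind them were few, 13.9 to 35.7 per library for Tlr2 and 23.8 to 57.5 for Tlr7 against 2570 to 3780 for Hmgb1.

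Hmgb1 (chr5:149046702-149184489, minus strand) encodes a chromatin protein that acts on TLR4 and other receptors when it is released from cells. The control mice had 216, 239 and 224 TPM, ethanol mice had 204, 217 and 172, stress mice had 228, 175 and 210, and ethanol + stress mice had 188, 225 and 249. Mean levels were 226 ± 11.7 in control and 198 ± 22.9 in ethanol (SD, n = 3 each), and ethanol replicate 2 lay within the control range. The log2 difference in ethanol was -0.20 (limma, SE 0.13, 95% interval -0.49 to 0.08, unadjusted p = 0.151). Stress stood at -0.15 and ethanol + stress at -0.04 on the same scale, both with intervals on both sides of 0. When each library was rescaled to the same total, which moves the median over all genes as well, the ethanol difference became -0.28 and passed the call threshold (unadjusted p = 0.00874, adjusted p = 1), as did 0.624% of all genes. In recovered read pairs it was -0.06. Hmgb1 overlaps Uspl1 on the opposite strand and, in 1 exon, Mm2pr on its own strand, and it has 13 processed copies in the table, which together held 1.13 to 5.07 TPM, so that reads of near-identical copies may be split between them.

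Tlr2 (chr3:83836272-83841767, minus strand) encodes a receptor for bacterial lipoproteins, which pairs with TLR1 or TLR6. It had 0.987, 0.946 and 0.836 TPM in control mice, 0.596, 1.12 and 0.531 in ethanol mice, 0.784, 1.17 and 0.875 in stress mice and 0.879, 1.43 and 0.890 in ethanol + stress mice. A single mouse of each treated group lay above the control range, and the differences from control ran from -0.22 to 0.12 on the log2 scale, with standard errors of 0.21. Without ethanol replicate 2 the ethanol difference moved from -0.22 to -0.42. Fold intervals reached from 0.622 to 1.19 in ethanol.

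Tlr3 (chr8:45395665-45411080, minus strand) encodes an endosomal receptor for double-stranded RNA. Control mice had 6.22, 7.12 and 7.65 TPM, and the highest value of each treated group was 9.97 for ethanol, 9.11 for stress and 11.3 for ethanol + stress. In each treated group the other mice lay at 6.25 to 6.93 TPM. Differences were 0.14, 0.06 and 0.16 on the log2 scale, each smaller than its standard error of 0.23. In recovered read pairs they were -0.08, -0.09 and -0.03, the opposite sign in each case. The leading transcript Tlr3-201 held 38.1% of the sum, with differences of -0.09, -0.30 and -0.01 (SE 0.45). The shorter Tlr3-209 and Tlr3-208, of 707 and 382 bases, held 21.1% and 10.3% and were named after their values had been seen. In the highest mouse of each treated group Tlr3-209 was at 2.80, 2.48 and 2.40 TPM, against at most 2.19 elsewhere. Tlr3-208 had at most 2.81 read pairs. The part of both in the change of sign was not tested. Tlr3 overlaps Gm45542 on the opposite strand in 2 exon pairs, and reads of the pair cannot be told apart if the counting did not use strand.

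Tlr4 (chr4:66827584-66930284, plus strand) encodes the receptor for bacterial lipopolysaccharide. It had 1.86, 2.40 and 2.01 TPM in control and 1.97, 1.56 and 1.68 in stress, with ethanol at 2.04 to 2.43 and ethanol + stress at 1.87 to 2.62. The stress difference was -0.21 (limma, SE 0.17, unadjusted p = 0.235), and the groups overlapped. Tlr4-201, the transcript that holds 88.1% of the gene's sum, was lower in every stress mouse (1.51 to 1.67 TPM) than in every control mouse (1.77 to 2.01 TPM), with a difference of -0.21 (SE 0.26, unadjusted p = 0.441). Of all transcripts, 8.22% likewise did not overlap between these groups.

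Tlr7 (chrX:167304929-167330558, minus strand) encodes an endosomal receptor for single-stranded RNA. The summed TPM was 1.40, 0.931 and 1.14 in control mice, 1.25, 1.28 and 0.868 in ethanol mice, 3.54, 1.32 and 1.44 in stress mice and 1.57, 2.42 and 3.01 in ethanol + stress mice. Every ethanol + stress mouse lay above every control mouse, and above every ethanol mouse, while stress replicate 1 was the highest of all. Of all genes tested, 5.63% were likewise higher in every ethanol + stress mouse than in every control mouse. The difference between ethanol + stress and control was 0.75 (limma, SE 0.30, 95% interval 0.09 to 1.41, unadjusted p = 0.0299, adjusted p = 0.791). The differences in stress, 0.56 (SE 0.30), and in ethanol, -0.02 (SE 0.30), were not called, and without stress replicate 1 the stress difference was 0.19.

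Averaged over both prenatal conditions, Tlr7 was the only one of the 9 members called for postnatal stress. The mean was 2.22 TPM in the 6 separated mice and 1.15 TPM in the 6 undisturbed mice, a log2 difference of 0.66 (limma, SE 0.21, 95% interval 0.20 to 1.13, unadjusted p = 0.00945, adjusted p = 1). An exact permutation test over the 400 arrangements that keep the prenatal groups gave a two-sided p of 0.01. The share of all genes called in this contrast was 0.586%. The unadjusted p rose above 0.01 when any of 9 of the 12 libraries was left out, with differences of 0.48 (stress replicate 1 left out) to 0.72 (control replicate 1 left out). The call also did not hold without a filter on low values or with a minimum of 1 TPM. The interaction of ethanol and stress was 0.22 (SE 0.43, unadjusted p = 0.624), an interval too wide to tell whether the stress difference changed with ethanol, and it was 0.58 without stress replicate 1. The share of all genes called for the interaction was 0.461%.

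**Figure D3:**
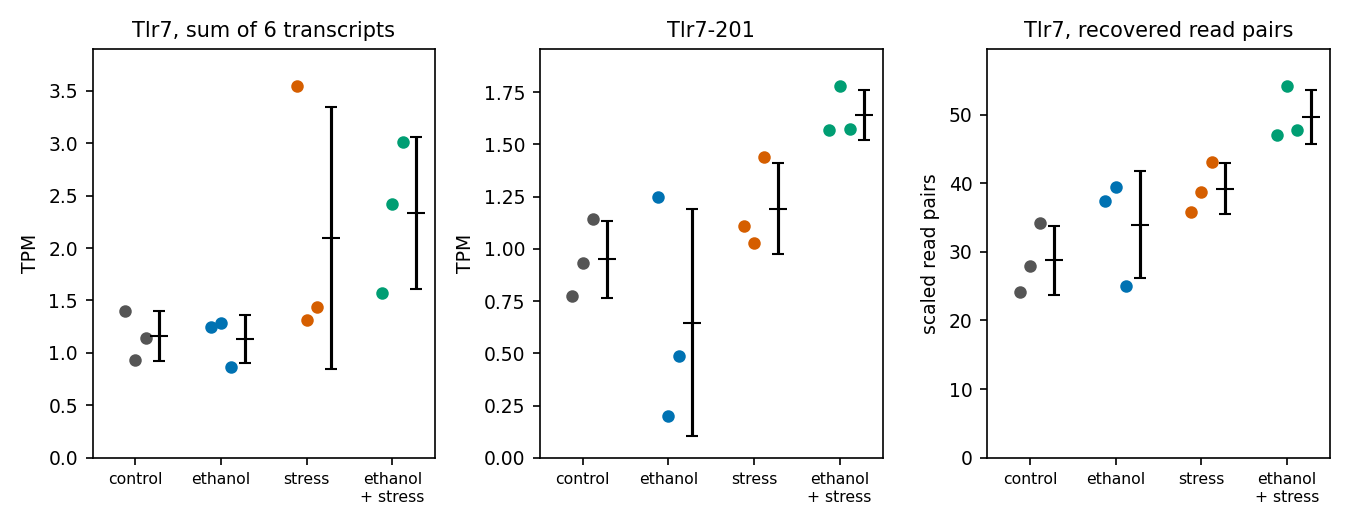
Tlr7 in each mouse as the summed TPM of its 6 transcripts, as TPM of the leading transcript Tlr7-201, and as recovered read pairs scaled to a common depth, on linear axes from 0 with the mean and SD of 3 mice. The 3.54 TPM of stress replicate 1 is absent from the other panels, and the separated groups lie above their undisturbed counterparts in the read pair panel.

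Part of the Tlr7 sum came from short transcripts, and those other than Tlr7-201 were named after their values had been seen. Tlr7-206, a processed transcript of 261 bases, held 1.24 TPM in stress replicate 1 and 1.43 TPM in ethanol + stress replicate 3, and it was at 0 in the other 10 libraries. Each of these values corresponds to fewer than 1 recovered read pair, which is an underestimate for a transcript this short. Tlr7-201, at 3776 bases the leading transcript with 65.9% of the sum, had 0.776, 0.931 and 1.14 TPM in control mice, 1.25, 0.200 and 0.490 in ethanol mice, 1.11, 1.03 and 1.44 in stress mice and 1.57, 1.78 and 1.58 in ethanol + stress mice. All ethanol + stress mice were above all other mice in this transcript, as were 0.468% of all transcripts tested. In ethanol replicate 2 most of the gene, 1.08 TPM, was instead assigned to Tlr7-202, which was at 0 everywhere else. The test of Tlr7-201 gave 0.57 for ethanol + stress against control (unadjusted p = 0.131) and 0.61 for stress over both prenatal conditions (unadjusted p = 0.0301), neither of which was called. Without ethanol replicate 1 the latter was 0.79 and was called (unadjusted p = 0.00439).

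Counted as read pairs, where a short transcript weighs no more than a long one, Tlr7 had 23.8, 24.9 and 32.9 in control mice, 39.8, 35.7 and 27.8 in ethanol mice, 38.4, 34.9 and 47.5 in stress mice and 49.7, 57.5 and 45.5 in ethanol + stress mice. Counting error alone is wide at this depth, with an exact Poisson interval of 15.4 to 35.7 for the lowest library and 43.2 to 73.9 for the highest. After scaling to a common depth the control mice lay at 24.2 to 34.2, stress mice at 35.8 to 43.1, ethanol mice at 25.0 to 39.4 and ethanol + stress mice at 47.0 to 54.1. Separated mice were thus above undisturbed mice within each prenatal condition without overlap, as were 0.114% of all genes on this scale and no other member. On this scale, which was added after the data had been seen, the stress difference over both prenatal conditions was 0.49 (unadjusted p = 0.00476 by limma) and the exact permutation p was 0.005, the smallest that the 400 arrangements allow. Ethanol + stress against control was 0.76 and was called (unadjusted p = 0.00261, adjusted p = 0.738), and the share of all genes called on this scale was 0.863% there and 0.456% for stress over both prenatal conditions. The Tlr7 difference in ethanol changed sign to 0.21.

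Microglial markers stood higher in some of the same libraries, and so did markers of astrocytes and oligodendrocytes. The summed TPM of 11 microglial genes, all detected in every library, was 504 to 561 in control mice, 440 to 632 in ethanol mice and 497 to 560 in stress mice, and it was 519, 673 and 720 in the ethanol + stress mice. None of the 11 was called in the comparisons with control, and their median difference was 0.25 in ethanol + stress and 0.02 in stress. In ethanol + stress replicates 2 and 3 the astrocyte markers summed to 1111 and 1173 TPM, against 889 to 929 in control. Oligodendrocyte markers summed to 5908 and 5868 TPM, against 4150 to 4524 in control. Hippocampal neuron markers were lower, at 2261 and 2109 TPM against 2391 to 2409, and endothelium markers stayed within the control range. The totals of these 2 libraries were 1126489.7 and 1130570.7 TPM, and that of ethanol replicate 2 was 1173649.8, against 942219.5 to 986540.7 in control. The part of the library total in the marker sums was not tested. More or fewer cells of a type and more or less RNA per cell cannot be told apart in bulk tissue. The 5 border macrophage markers summed to 5.69 to 11.8 TPM in control and 9.97 to 12.05 in ethanol + stress. For stress over both prenatal conditions, the contrast in which Tlr7 was called, the median difference was 0.13 for the microglial, 0.16 for the border macrophage, 0.80 for the neutrophil and 1.45 for the choroid plexus markers, and no gene of these 4 lists was called there. The 5 choroid plexus markers summed to 38.1 to 7231 TPM over the libraries, with all groups overlapping. In ethanol + stress against control all 5 blood genes and 2 of the 5 neutrophil markers were called higher. The part of these cells in the Tlr7 values was not tested.

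Myd88 (chr9:119335934-119341411, minus strand) encodes the adaptor shared by most of the receptors. It had 4.18, 3.85 and 3.31 TPM in control mice, 4.45, 4.20 and 3.52 in ethanol mice, 4.39, 3.70 and 4.44 in stress mice and 3.45, 4.70 and 3.40 in ethanol + stress mice. The groups overlapped and the differences were 0.09, 0.13 and 0.02 on the log2 scale, each with a standard error of 0.17. Of the sum, 98.9% was in the coding transcript Myd88-201. Myd88 overlaps Acaa1a, a peroxisomal enzyme gene on the opposite strand, in 4 exon pairs. The library kit keeps the strand, whether the counting used it is not given in the sources used here, and Acaa1a was at 36.3 to 51.3 TPM.

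Nfkb1 (chr3:135584655-135691547, minus strand) encodes p105, the precursor of the p50 subunit, and was the member with the smallest standard error. It had 13.9, 13.6 and 14.3 TPM in control and 14.2, 17.0 and 12.9 in ethanol, with stress at 12.8 to 14.4 and ethanol + stress at 13.4 to 14.6. The differences were 0.07, -0.04 and 0.02 (SE 0.11), and the fold intervals lay between 0.823 and 1.24. The transcript with the most TPM was Nfkb1-209, annotated as a target of nonsense-mediated decay, with 56.1% of the gene's sum, and the coding Nfkb1-201 held 30.0%. Nfkb1-209 was at 7.90, 8.18 and 8.55 TPM in control and 6.66, 11.6 and 5.82 in ethanol. Nfkb1-201 averaged 3.69 ± 0.63 in control and 4.76 ± 0.40 in ethanol + stress (SD, n = 3 each), with overlap. The division of reads between such transcripts is an estimate of kallisto and not a direct count.

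Rela (chr19:5637483-5648130, plus strand) encodes the p65 subunit that carries the activation domain. Control mice had 5.90, 6.03 and 5.91 TPM, a spread of 1.26% of the mean, and ethanol mice had 7.96, 7.13 and 6.87. All ethanol mice were above all control mice, as were 5.06% of all genes tested. Stress mice had 7.02, 6.65 and 5.66 TPM, ethanol + stress mice had 7.64, 5.77 and 7.47, and both groups overlapped with control. The ethanol difference was 0.28 (limma, SE 0.14, 95% interval -0.03 to 0.58, unadjusted p = 0.0731, adjusted p = 0.997). In recovered read pairs it was 0.29 (unadjusted p = 0.0461), not called either. Over both rearing conditions the ethanol difference was 0.19 (SE 0.10), with an exact permutation p of 0.06. With each library rescaled to the same total, the ethanol difference was 0.20 (limma, unadjusted p = 0.297) and that over both rearing conditions was 0.09 (limma, unadjusted p = 0.479). The share of all genes called in that contrast was 1.12%, and no member was among them.

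The 5 haemoglobin and erythroid genes of the blood list were higher in all treated mice (2454 to 6815 TPM in sum) than in control mice (1603 to 2022), and all 5 were called in ethanol and in ethanol + stress. The part of blood in the Rela values was not tested. The 7 hippocampal neuron markers, with 2109 to 2621 TPM in sum, were present in every library.

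Nfkbia (chr12:55489410-55492647, minus strand) encodes IkBα, which holds NF-kB in the cytoplasm and is itself a target of NF-kB. It had 27.8, 31.4 and 27.1 TPM in control mice, 27.8, 25.9 and 24.5 in ethanol mice, 27.4, 18.9 and 25.9 in stress mice and 25.3, 29.6 and 20.2 in ethanol + stress mice. All 3 treated means, 26.0, 24.1 and 25.0, were below the control mean of 28.8, with single mice of each treated group within the control range. The differences were -0.14, -0.27 and -0.21 on the log2 scale (SE 0.16), and unadjusted p-values from limma were 0.389, 0.116 and 0.204. The coding transcript Nfkbia-201 was lower in all ethanol mice (17.5 to 20.5 TPM) than in all control mice (20.6 to 23.8), a difference of -0.19 (unadjusted p = 0.159), where 10.2% of all transcripts did not overlap between these groups. The retained intron transcript Nfkbia-202 held 21.9% of the sum and varied from 0.915 TPM in ethanol + stress replicate 3, with 3.60 read pairs, to 7.91 TPM in ethanol replicate 1, with 34.9 read pairs; it was chosen after its values had been seen.

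At the level of transcripts, 29 of the 46 transcripts of these genes passed the filter, and none was called in any of the 6 contrasts, where of all 59852 tested transcripts 1.26% were called in ethanol, 0.914% in stress, 1.21% in ethanol + stress, 1.47% for ethanol over both rearing conditions, 0.934% for stress over both prenatal conditions and 0.854% for the interaction. Of the 87 differences of these transcripts from control, 10 had groups that did not overlap, 5 of them for ethanol, 2 for stress and 3 for ethanol + stress. Among all transcripts the shares without overlap were 10.2%, 8.22% and 10.2%.

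The isoforms of Hmgb1 did not vary alike over the mice, and the following pair was chosen after its values had been seen. Hmgb1-201, the leading transcript with 55.2% of the sum, was at 106, 113 and 113 TPM in control mice, 111, 137 and 103 in ethanol mice, 123, 104 and 119 in stress mice and 114, 122 and 141 in ethanol + stress mice. Hmgb1-210, a coding transcript of 685 bases with an outlying first exon, was at 44.3, 47.2 and 47.8 TPM in control mice, 31.8, 28.2 and 17.5 in ethanol mice, 23.5, 12.4 and 44.5 in stress mice and 24.0, 44.0 and 44.6 in ethanol + stress mice. All ethanol mice were below all control mice, and stress replicate 3 and 2 of the ethanol + stress mice were close to control. Its differences were -0.88 in ethanol (SE 0.40, unadjusted p = 0.0515) and -0.96 in stress (unadjusted p = 0.0352), and the interaction was 1.48 (SE 0.57, unadjusted p = 0.0242). Without stress replicate 3 the stress difference was -1.42 and passed the threshold (unadjusted p = 0.00213), as did the interaction at 1.94 (unadjusted p = 0.00188). Without stress replicate 2, the lowest mouse, the stress difference was -0.51 and the interaction 1.03, neither past the threshold. Hmgb1-203 was at 36.9, 43.6 and 28.7 TPM in control and at 28.7, 20.6 and 21.5 in ethanol, a difference of -0.61 (SE 0.22, unadjusted p = 0.0194, adjusted p = 0.842). It passed the threshold without control replicate 3 (-0.77, unadjusted p = 0.00892) or stress replicate 1 (-0.61, unadjusted p = 0.00840).

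**Figure D4:**
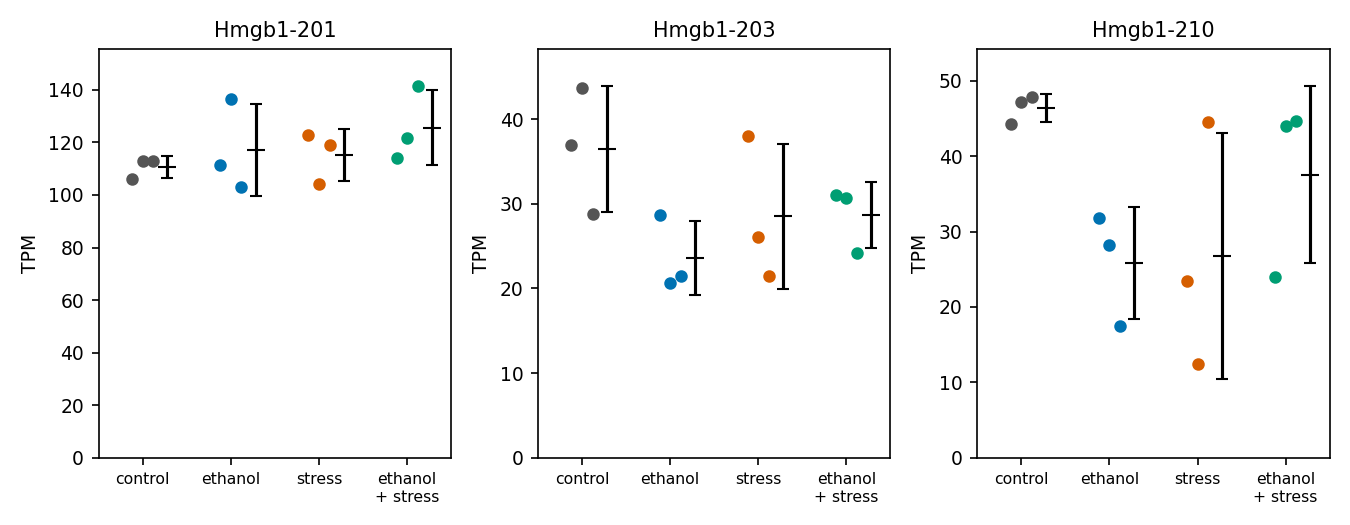
TPM of Hmgb1-201, Hmgb1-203 and Hmgb1-210 in each mouse on linear axes from 0, with the mean and SD of 3 mice. Hmgb1-201 lies between 103 and 141 TPM in all groups, whereas Hmgb1-210 is at 44.3 to 47.8 TPM in control and spreads from 12.4 to 44.6 TPM in the treated mice.

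The wider pathway was described with 61 further genes in 8 roles, of which 58 passed the filter. Tlr11 was at 0 in all libraries, Tnf was at 0 in 6 of 12 and Tlr8 was at most 4.98 read pairs. In each of the comparisons with ethanol and with ethanol + stress 1 of the 58 genes was called, in both cases higher, and in the comparison with stress none was. Of all genes 0.678% were called in ethanol, 0.971% in ethanol + stress and 0.51% in stress, so these counts are near the shares. An unadjusted p under 0.05 by limma was reached by 4 of the 58 for ethanol (3 higher and 1 lower, against 3.63% of all genes), by 2 for stress (against 2.4%) and by 5 for ethanol + stress (against 5.37%). The median difference over the 58 genes was 0.01 for ethanol, -0.0072 for stress and 0.05 for ethanol + stress, and over all genes tested it was 0.02, 0.0042 and 0.02.

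Among the inflammatory targets, Ccl5, a chemokine for T cells, was at 0.619, 0.570 and 0.266 TPM in control and at 2.33, 1.23 and 1.72 in ethanol, and it rose by 1.19 on the log2 scale (limma, unadjusted p = 0.00562, adjusted p = 0.997). Il1b, the cytokine interleukin-1 beta, was at 0.313, 0.231 and 0.107 TPM in control and at 0.390, 0.677 and 0.760 in ethanol + stress. It rose by 0.62 there (limma, unadjusted p = 0.00848, adjusted p = 0.791). Il1b was at 0.388, 0.698 and 0.647 TPM in ethanol and at 0.382, 0.570 and 0.463 in stress, so its higher level was not particular to ethanol + stress. Its control values stand for 2.98, 1.99 and 0.997 read pairs, which cannot be told from 0. Both calls rest on few reads, since Ccl5 had 0 to 7.93 and Il1b 0.938 to 6.97 read pairs per library. Neither was called with a minimum of 1 TPM, which removes them. The call of Ccl5 was also lost with pseudocount 0.1. That of Il1b was also lost when libraries were rescaled to a common total or only the 2 groups were compared. The median over the 11 tested targets was 0.20 for ethanol, 0.06 for stress and 0.29 for ethanol + stress. In ethanol + stress 4 of the 11 had an unadjusted p under 0.05 by limma, against 5.37% of all genes. They were Il1b, Il6, Ccl3 and Icam1, the last 3 named after their values had been seen. Il6 was at 0 in all 3 control mice and at no more than 2.98 read pairs elsewhere. It passed the filter only through treated mice, so that its p gives no support. It is still counted in the 4 of 11, in the 5 of 58 above and in the medians of the targets. Ccl2, also part of these medians, was at 0 in control replicates 2 and 3 and had at most 1.99 read pairs. Ccl3 had at most 5.97 read pairs, and the Icam1 value rests on ethanol + stress replicate 2, at 5.33 TPM against 1.95 to 2.91 in the other mice. Neutrophil markers summed to 0.463 to 7.07 TPM in control and to 5.33, 30.6 and 26.3 in ethanol + stress, where 2 of the 5 were called, and their part in these values was not tested. Vcam1, an adhesion molecule of activated endothelium and the highest of the targets, was at 20.4 ± 0.36 TPM in control and 24.3 ± 4.83 in ethanol + stress (SD, n = 3 each).

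In the other 7 roles no gene was called against control. Among the 6 other Toll-like receptors tested, of which Tlr13, a receptor for bacterial ribosomal RNA, had the highest level at 1.12 to 1.80 TPM, no gene was called and the medians lay between -0.05 and 0.10. Tollip, an inhibitor of receptor signalling and the highest pathway gene at 68.2 to 81.0 TPM, averaged 72.8 ± 2.03 TPM in control mice, 72.5 ± 5.11 in ethanol mice, 74.8 ± 4.83 in stress mice and 76.1 ± 5.56 in ethanol + stress mice (SD, n = 3 each). The IkB protein gene Nfkbib was at 13.8 to 18.1 TPM, Traf3, an adaptor of TLR3 and TLR7 signalling, at 27.3 to 37.0, Irf3, the interferon regulator downstream of TLR3, at 13.0 to 22.7 and Hmgb3 at 14.3 to 27.8. Tbk1, the kinase of IRF3, was at 34.9, 41.6 and 37.8 TPM in control and 34.2, 27.1 and 33.1 in stress, a difference of -0.27 with an unadjusted p of 0.0256 from limma.

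In the contrasts over both conditions, 1 of the 58 pathway genes was called for ethanol, where 1.12% of all genes were. For stress 1 of the 58 was called, where 0.586% of all genes were. The genes were named after their values had been seen. Irak4, the kinase that MYD88 recruits first, was at 1.26, 0.985 and 1.08 TPM in control mice, 1.64, 2.15 and 1.60 in ethanol mice, 1.49, 1.10 and 1.34 in stress mice and 1.29, 1.87 and 2.22 in ethanol + stress mice. It rose by 0.42 with ethanol over both rearing conditions (limma, unadjusted p = 0.00993, adjusted p = 0.760), on 20.3 to 42.2 read pairs per library. Ccl5 was lower by 0.79 with stress over both prenatal conditions (log2 difference -0.79, unadjusted p = 0.00805). Its means were 0.485 TPM in control, 0.400 in stress, 1.76 in ethanol and 0.395 in ethanol + stress, so the averaged value rests on the ethanol mice, and the interaction was -1.29 (unadjusted p = 0.0234, not called). The interferon regulator Irf7, which acts downstream of TLR7, was at 3.04, 2.37 and 2.55 TPM in control and at 0.886, 2.35 and 1.32 in ethanol. This difference of -0.70 was not called (limma, unadjusted p = 0.0135). Irf7 was also lower in stress mice, at 1.54, 1.93 and 1.61 TPM, and was at 1.94, 1.85 and 2.55 in ethanol + stress mice.

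The gene whose level was most like that of a member over the 12 libraries was Gm43517 for Tlr2 (Pearson r = 0.935), Scg3 for Tlr3 (0.845), Dnase1l2 for Tlr4 (0.893) and Mob3b for Tlr7 (0.885). It was Aig1 for Myd88 (0.927), Eif4g2 for Nfkb1 (0.947), BC051142 for Rela (0.900), Srsf2 for Nfkbia (0.823) and Gpc5 for Hmgb1 (0.924). These are the highest of 14398 candidates each, share libraries and scaling, and are given as a description only. No member had another member as its nearest gene.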

How the data were processed

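Hippocampal RNA of 12 individually processed mice (3 per group) was measured with paired-end, strand-keeping, ribosome-depleted libraries. Per the labels and the study's methods, the authors pseudo-aligned reads with kallisto to the Ensembl mouse transcriptome (build mm10) and normalized them with sleuth. The deposited table is a signal in scaled TPM (length-corrected transcript abundance) for 115270 transcripts, and sums to 889222.3 to 1173649.8 per library. Groups came from the labels. The versions of these tools and the strand setting are not given in the sources used here. Unused sample columns numbered 0.

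Transcripts were matched to GENCODE vM21 by identifier (113580 matched, the others hold 0.518 to 0.58% of values) and summed per gene. Features with at least 0.1 TPM in 6 or more of 12 libraries were kept (18434 genes, 59852 transcripts). limma 3.58.1 (R 4.3.3, moderated with a trend, two-sided) was fitted to log2(TPM + 0.5) over 4 group means, with Benjamini-Hochberg adjustment over all features. It was tested on simulated data. With 3 against 3 mice an exact permutation test cannot go below 0.1, so exact tests were used only over 6 against 6 mice, within strata. Python 3.11.15 with pandas 2.3.3, numpy 2.4.6 and matplotlib 3.10.9 was used for tables and plots.

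The table gives no counts, but 79.7 to 82.9% of low values (up to 6 read pairs) were whole multiples of 1 read pair within 0.1, and depth was recovered from that step. Read pairs of transcripts not much longer than the fragments (197 to 211 bases) are underestimated. Values at or under 3 read pairs cannot be told from 0. Poisson intervals cover counting error only.

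The members and the lists were chosen with earlier results of these data known. The genes named are all 9 members with their leading transcript, pathway genes called against control and otherwise the highest of each role, and the most alike gene of each member. Other genes and transcripts given with a test outside this rule were chosen after their values were seen. Alternatives were the pseudocount, filter, scaling, variance trend, groups fitted, replicate block, each library left out and, added after seeing the data, recovered read pairs. Same-numbered mice did not deviate together and were not treated as pairs. The labels do not say whether mice of a group came from separate litters, so p-values measure the spread between these mice.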

Additional observations from a re-analysis of the deposited data

How the results depend on the processing

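Of 1155 differences of the 9 gene sums recomputed under alternative settings, 1138 kept their direction and side of the threshold, and so did 1099 of 1107 for the transcripts; a change of sign was counted where the difference exceeded its standard error in either fit. Signs turned for Tlr7 in ethanol (0.21 in recovered read pairs), Nfkb1 in ethanol + stress (-0.11 rescaled to a common total) and Hmgb1-201 in ethanol over both rearing conditions (-0.0039 rescaled). Rescaling moved the median over all genes in ethanol + stress from 0.02 to -0.09, and the genes called in ethanol from 95 higher and 30 lower to 69 higher and 46 lower. The number of members called went from 0 to 1 in ethanol when rescaled (Hmgb1), from 0 to 1 in ethanol + stress with recovered read pairs (Tlr7), and from 1 to 0 in stress over both prenatal conditions with no filter, a minimum of 1 TPM or the replicate block. Leaving out 1 library gave 0 to 1 members in ethanol + stress (1 without stress replicate 1) and 0 to 1 in stress over both prenatal conditions (1 without stress replicate 2, stress replicate 3 or ethanol + stress replicate 1). Member transcripts called in ethanol were 1 with the replicate block (Hmgb1-203, unadjusted p = 0.00438) or with only the 2 groups compared (Hmgb1-210), and 0 to 1 over libraries left out (Hmgb1-203), and they were 0 to 1 in stress (Hmgb1-210). Leaving out 1 library also called Tlr7-201 in stress over both prenatal conditions and Hmgb1-210 in the interaction. Pathway genes called in ethanol were 0 with pseudocount 0.1, a minimum of 1 TPM or the replicate block, and 2 with no filter, rescaled or without the trend (0 to 2 over libraries left out). In stress they were 0 to 1 over libraries left out. In ethanol + stress they were 2 with pseudocount 0.1, no filter or no trend, and 0 with a minimum of 1 TPM, rescaled, the replicate block or only the 2 groups (0 to 4 over libraries left out, 4 without ethanol + stress replicate 1). The cause of these changes was not tested.

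The replicate numbers were not used as pairs: over 18 same-numbered pairs of libraries the correlation of deviations ran from -0.173 to 0.164, with 1 above 0.1, and 2 of 12 libraries correlated best with their own number. With the replicate block, which cannot change a difference in this balanced design, the call of Tlr7 in stress over both prenatal conditions (0.66) was lost, with an unadjusted p of 0.0146 in place of 0.00945. Depth limits Tlr2 and Tlr7 most, the members with the fewest read pairs: a gene with 24 read pairs, as Tlr7 in the lowest library, carries an exact Poisson interval of 15.4 to 35.7.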
